A study of Mus musculus with 3 samples.

Results

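Malat1 and Neat1 are 2 long noncoding RNAs that stay in the nucleus, and they were followed here through 3 single-cell RNA libraries of sorted mouse brain cells. They were chosen by name, as 2 of the 32285 genes in the count tables, because their levels had been seen to run in opposite directions between libraries, so all values are a description of that pattern and no test is attached to them. Every mouse was an Apoe knockout, that is, without the apolipoprotein E gene. The first library came from mice given neuromyelitis optica spectrum disorder (NMOSD), an astrocyte-directed autoimmune disease of optic nerve and spinal cord, and treated with the peptide APOE130-149. A further library came from mice with NMOSD given a control peptide, and the last library from mice with a sham induction given PBS. Brains of 4 mice per group were pooled on day 4, the CD45int CD11b+ cells (microglia, but also other myeloid cells) were isolated by flow cytometry, and 1 library was made per pool. The 3 groups are called APOE130-149, control peptide and sham. The labels give neither the knockout allele nor the age of the mice.

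Malat1 collects in nuclear speckles, the bodies where splicing factors are stored, and is among the most abundant RNAs of many mammalian cells. Neat1 is the scaffold of paraspeckles, which form next to speckles around Neat1 and a set of RNA-binding proteins, and it is known to be induced in activated immune cells. Both lack a usual poly(A) tail at their long form's end: RNase P cuts the transcript, and a U-rich and A-rich triple helix protects what is left. Neat1 also has a short form that ends at an ordinary poly(A) site.

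The genes lie side by side on the minus strand of chromosome 19 in GRCm38, the mm10 build (GENCODE vM21 annotation). Malat1 (ENSMUSG00000092341, lincRNA) covers chr19:5795690-5802672 and Neat1 (ENSMUSG00000092274, lincRNA) covers chr19:5824708-5845478, with 22035 bases between them. The nearest listed neighbour, the protein-coding gene Frmd8, lies 4224 bases from Neat1. Malat1-201 is a transcript of 1 exon and 6983 bases, Neat1-201 is 1 exon of 20771 bases, and the short Neat1-202 has 2 exons and 3004 bases. The count tables do not say where in a transcript the reads lay. The transcript ends are shown because both long forms end in the same kind of element. In the long forms, the capitals mark the stretches of at least 10 bases that the last 400 bases of Malat1-201 and Neat1-201 share, written in DNA letters. These hold the U-rich and A-rich tracts of the triple helix. In the short form the capitals mark the poly(A) signal.
Malat1-201, chr19:5795972-5796075, minus strand: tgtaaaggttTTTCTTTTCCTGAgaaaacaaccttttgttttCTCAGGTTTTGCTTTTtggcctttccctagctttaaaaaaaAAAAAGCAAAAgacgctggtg
Neat1-201, chr19:5824708-5824817, minus strand: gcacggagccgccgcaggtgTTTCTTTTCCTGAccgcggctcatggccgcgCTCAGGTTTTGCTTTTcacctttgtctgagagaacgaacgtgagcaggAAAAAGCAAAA
Neat1-202, chr19:5842307-5842366, minus strand: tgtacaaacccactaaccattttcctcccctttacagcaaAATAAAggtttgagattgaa
The Neat1-201 stretch ends with the annotated transcript, and the Malat1-201 stretch ends 282 bases before it. The 3 shared stretches do not overlap, and they were searched on the transcript strand in the last 400 bases of 122312 annotated transcripts. TTTCTTTTCCTGA was found in 6 transcripts (0.00491%), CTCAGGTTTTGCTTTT in 2 (0.00164%) and AAAAAGCAAAA in 143 (0.117%). All 3 in that order were found in 2 transcripts, which were Malat1-201 and Neat1-201. The longest run of A was 12 bases in Malat1-201, 7 in Neat1-201 and 5 in Neat1-202. The count tables hold 1 value per gene, so the long and short Neat1 forms cannot be told apart, and a level of Malat1 is not set against a level of Neat1 as an amount.

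In unique molecular identifiers (UMIs), each of which stands for 1 captured RNA molecule, the depth was 32060750 over 2175 barcodes in APOE130-149. It was 61469677 UMIs over 5306 barcodes in control peptide and 32712199 UMIs over 4674 barcodes in sham. Median UMIs per barcode were 9504, 7586 and 6582.5 in the same order, and no barcode held fewer than 500. Apoe gave 147, 134 and 105 counts per 1e+06 UMIs (CPM) in APOE130-149, control peptide and sham. Whether these 3′ tags lie outside the deleted stretch is not known here, so Apoe does not check the genotype label. Of 12155 barcodes, 3 sequences were shared between APOE130-149 and control peptide, 9 between control peptide and sham, and 0 between APOE130-149 and sham. With 1 library per group there is no spread between replicates, and every interval below is an exact 95% interval for counting error only. Barcodes were gated by markers, and "microglia-gated" means at least 3 of 10 microglia markers, at least 1% of UMIs from them and no other type called.

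Over all barcodes, Malat1 and Neat1 stood in opposite orders. Malat1 was at 19218 CPM in the APOE130-149 library, 20383 CPM in the control peptide library and 23079 CPM in the sham library. Neat1 was at 154 CPM (interval 149 to 158) in the APOE130-149 library, 113 CPM (111 to 116) in the control peptide library and 68.2 CPM (65.4 to 71.1) in the sham library. The sham library was thus highest for Malat1 and lowest for Neat1, and no interval of either gene overlapped another. The ratio of APOE130-149 over sham was 0.833 for Malat1 and 2.25 (2.14 to 2.37) for Neat1, and that of control peptide over sham was 0.883 and 1.66 (1.58 to 1.74). The Malat1 order did not hold when each barcode counted equally: the mean of the barcodes' shares gave Malat1 ratios of 1.12 for APOE130-149 over sham and 1.19 for control peptide over sham.

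Most of these UMIs came from microglia-gated barcodes above 2500 UMIs, of which there were 1631 in the APOE130-149 library, 4217 in the control peptide library and 2935 in the sham library. All 10 microglia markers were detected in each, with summed levels of 25692, 24747 and 24165 CPM in that order. Malat1 was at 19910.4 CPM in APOE130-149, 21216 CPM in control peptide and 24669 CPM in sham microglia-gated barcodes, from 546419, 1128884 and 712539 UMIs. The median barcode gave 2.06%, 2.21% and 2.49% of its UMIs to Malat1 in those libraries. Neat1 was at 143 CPM (138 to 147) in APOE130-149, 104 CPM (101 to 106) in control peptide and 58.3 CPM (55.6 to 61.2) in sham, from 3919, 5510 and 1684 UMIs. As over all barcodes, Malat1 was highest and Neat1 lowest in the sham library.

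The Malat1 ratios in these barcodes were small and the Neat1 ratios larger. Malat1 gave 0.938 (0.935 to 0.941) for APOE130-149 over control peptide, 0.807 (0.804 to 0.810) for APOE130-149 over sham and 0.860 (0.857 to 0.863) for control peptide over sham. Neat1 gave 1.38 (1.32 to 1.44), 2.45 (2.31 to 2.59) and 1.78 (1.68 to 1.88) for the same pairs. A gene was counted as past the threshold when it reached 1.5-fold with at least 10 CPM in the higher library. Neat1 passed upward in APOE130-149 over sham, where 1.9% of the 8524 genes measured did, and in control peptide over sham, where 1.73% of 8508 did. In APOE130-149 over control peptide Neat1 stayed below it, and 0.465% of 8380 genes passed upward. Malat1 passed in none of the 3 comparisons, against 1.15%, 1.01% and 0.155% of genes that passed downward in APOE130-149 over sham, control peptide over sham and APOE130-149 over control peptide. The pairs share libraries, so these ratios are not independent of each other.

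The number of Malat1 UMIs per Neat1 UMI put both differences into 1 figure, which can be set between libraries but says nothing of the amount of either RNA. It was 139 in APOE130-149, 205 in control peptide and 423 in sham microglia-gated barcodes above 2500 UMIs. Malat1 was absent from 0.307% of these barcodes in APOE130-149, 0.285% in control peptide and 0.409% in sham. Neat1 was absent from 652 of the 1631 barcodes in APOE130-149, 2228 of 4217 in control peptide (52.8%) and 1949 of 2935 in sham (66.4%). The 1% of barcodes with most UMIs of the gene held 10.4% of the Neat1 UMIs in APOE130-149, 13.03% in control peptide and 12.95% in sham, and the most in 1 barcode were 35, 50 and 24 UMIs. For Malat1 the same 1% held 6.84%, 6.998% and 5.13%. The genes' values are not set against each other here, since a gene with fewer UMIs is absent from more barcodes by counting alone.

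Shares of barcodes with a Neat1 UMI kept the order of the levels at equal depth. With every microglia-gated barcode thinned to 1000 UMIs, Neat1 was seen in 11.7% of barcodes in APOE130-149, 8.72% in control peptide and 4.94% in sham. The unthinned shares of the same barcodes were 57.8%, 45.1% and 28.0%. Shallower barcodes were left out, 93 in APOE130-149, 159 in control peptide and 584 in sham. Malat1 was seen at 1000 UMIs in 98.2%, 98.8% and 96.8% of barcodes. As a low comparison, choroid plexus-gated barcodes above 2500 UMIs showed a Neat1 UMI in 1 of 7 in APOE130-149 and 4 of 23 in control peptide, at median depths of 8417 and 11150 UMIs, against medians of 10719 and 8141 in the microglia gate.

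A stricter marker gate was named as an alternative and turned the Malat1 direction in both APOE130-149 pairs. It asked for 5 microglia markers, 1.5% of UMIs and no marker UMI of any other type, and it left 32 barcodes above 2500 UMIs in APOE130-149, 134 in control peptide and 217 in sham. In these the Malat1 ratio was 1.19 for APOE130-149 over control peptide, 1.12 for APOE130-149 over sham and 0.942 for control peptide over sham. The Neat1 ratios were 1.03, 1.61 and 1.57 for those pairs. A deep barcode is more likely to hold a marker UMI of another type, so this gate can favour shallower barcodes. The depths of the barcodes it kept were not compared. Without it, microglia-gated barcodes of 2500 to 5000 UMIs gave Malat1 ratios of 1.09, 1.17 and 1.08 for the same pairs. The part of depth in the turn was not tested. A gate that allowed 1 marker of each other type, added after the data were seen, left 466, 1694 and 1597 barcodes and gave Malat1 ratios of 0.944, 0.892 and 0.944 and Neat1 ratios of 1.10, 2.25 and 2.04. The Neat1 ratio was thus above 1 for every pair under both gates, while Malat1 was below 1 for every pair under the looser gate only. The Neat1 ratio of 1.03 rests on 32 barcodes in APOE130-149 and is given without an interval, so its direction is not settled.

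Markers of other cells were present at low levels in the microglia-gated barcodes above 2500 UMIs, and they differed between libraries. The 8 neutrophil markers, all detected, summed to 846 CPM in APOE130-149, 443 CPM in control peptide and 237 CPM in sham. The 8 choroid plexus markers summed to 76.2, 101 and 3.77 CPM, with Kl and Clic6 at 0 in sham. The 8 T and NK lymphocyte markers summed to 3.32, 6.39 and 0.138 CPM, with 5 of 8 (Cd3e, Cd3g, Trac, Nkg7 and Klrb1c) at 0 in sham. The neutrophil sum therefore ran in the order of Neat1 in these barcodes, but opposite to it in microglia-gated barcodes of 500 to 2500 UMIs. Its part in the Neat1 values was not tested.

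Depth divided the Malat1 pattern. Among microglia-gated barcodes of 500 to 2500 UMIs, 198 in APOE130-149, 419 in control peptide and 1290 in sham, Malat1 was at 24795 CPM in APOE130-149, 31708 CPM in control peptide and 6503 CPM (6374 to 6634) in sham. The median barcode gave Malat1 1.22%, 2.02% and 0.300% of its UMIs. Sham was the lowest library in this class and the highest in the deeper one. The ratios were 0.782 for APOE130-149 over control peptide, 3.81 (3.69 to 3.94) for APOE130-149 over sham and 4.88 (4.76 to 4.999) for control peptide over sham. Under the stricter marker gate, which left 39, 37 and 124 shallow barcodes, the Malat1 ratio was 2.51 for APOE130-149 over sham, and with the boundary at 3500 UMIs it was 3.15 for control peptide over sham.

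Neat1 kept its order in the shallow class. It was at 233 CPM (175 to 304) in APOE130-149, 79.3 CPM (57.4 to 107) in control peptide and 41.6 CPM (31.9 to 53.3) in sham, from only 54, 43 and 62 UMIs. The ratios were 2.94 (1.93 to 4.49) for APOE130-149 over control peptide, 5.59 (3.81 to 8.19) for APOE130-149 over sham and 1.91 (1.26 to 2.86) for control peptide over sham. Under the stricter gate the first became 5.67 and the last 1.16. In barcodes of 500 to 2500 UMIs both genes were thus higher in each NMOSD library than in sham, and the opposite orders of the deeper class were not seen. Past 1.5-fold upward stood Neat1 in all 3 pairs and Malat1 in both pairs with sham. In the same direction stood 22% of 9012 genes measured for APOE130-149 over control peptide, 32.1% of 8966 for APOE130-149 over sham and 24.8% of 8883 for control peptide over sham. Passing 1.5-fold was thus common in shallow barcodes. Shares of genes at the larger ratios of Malat1 and Neat1 were not counted.

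Within a library, the shallow class lay above the deep class for Malat1 in both NMOSD libraries and far below it in sham. The level at 500 to 2500 UMIs over that above 2500 UMIs was 1.25 for Malat1 in APOE130-149, 1.49 in control peptide and 0.264 in sham. For Neat1 it was 1.63, 0.766 and 0.714. Shallow barcodes made up 10.8% of microglia-gated barcodes in APOE130-149, 9.04% in control peptide and 30.5% in sham, and held 0.838%, 1.01% and 4.91% of the UMIs.

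**Figure D1:**
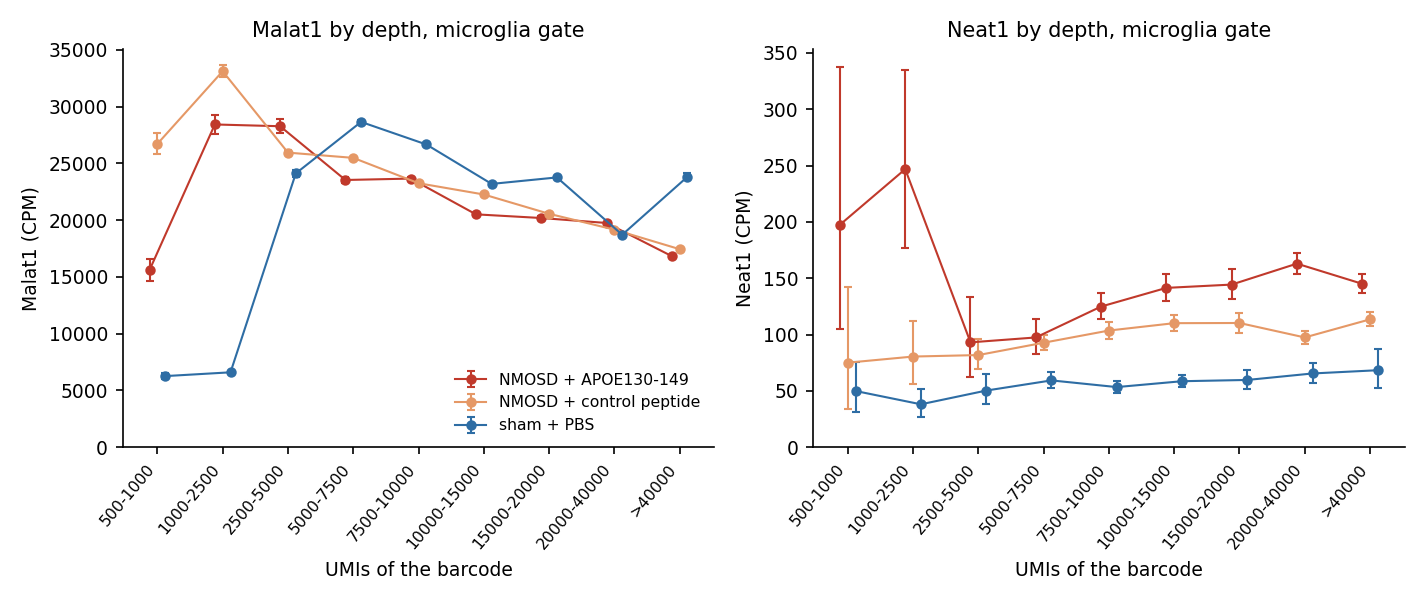
Level of Malat1 and of Neat1 in CPM (vertical axes) in microglia-gated barcodes over 9 bins of UMIs per barcode (horizontal axis), for the APOE130-149, control peptide and sham libraries, with exact 95% Poisson intervals as bars. Sham Malat1 lies at 6601 CPM just below the 2500 UMI boundary and at 24121 CPM just above it, while Neat1 lies lowest in sham in each of the 9 bins.

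The plot of levels by depth shows where the Malat1 orders changed over. Bins leave out their lower bound, except the first, and hold their upper one. Just under the boundary, at 1000 to 2500 UMIs, Malat1 was at 28434 CPM in APOE130-149, 33123 CPM in control peptide and 6601 CPM in sham. Just above it, at 2500 to 5000 UMIs, the levels were 28278, 25953 and 24121 CPM. Sham changed most across the boundary. From 5000 to 7500 UMIs Malat1 stood at 23543 CPM in APOE130-149, 25491 CPM in control peptide and 28658 CPM in sham, which was the highest sham bin. From 20000 to 40000 UMIs the libraries lay close, at 19756, 19169 and 18718 CPM. Above 40000 UMIs they stood apart again, at 16834 and 17448 CPM in APOE130-149 and control peptide against 23829 CPM in sham, where the bin held 19 barcodes. Over the 6 bins from 5000 UMIs up, the Malat1 ratio ran between 0.706 and 1.06 for APOE130-149 over sham and between 0.732 and 1.02 for control peptide over sham. Without the sparsely filled top bin the lowest ratios were 0.821 and 0.865.

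Neat1 gave ratios above 1 for every pair in each of the 9 bins. The interval lay above 1 in 7 bins for APOE130-149 over control peptide, in 9 for APOE130-149 over sham and in 8 for control peptide over sham. At 5000 to 7500 UMIs Neat1 was at 97.4 CPM in APOE130-149, 92.8 CPM in control peptide and 59.3 CPM in sham, and at 20000 to 40000 UMIs it was at 163, 97.4 and 65.5 CPM. Neat1 thus held its order at matched depth, where Malat1 did not hold one order.

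**Figure D2:**
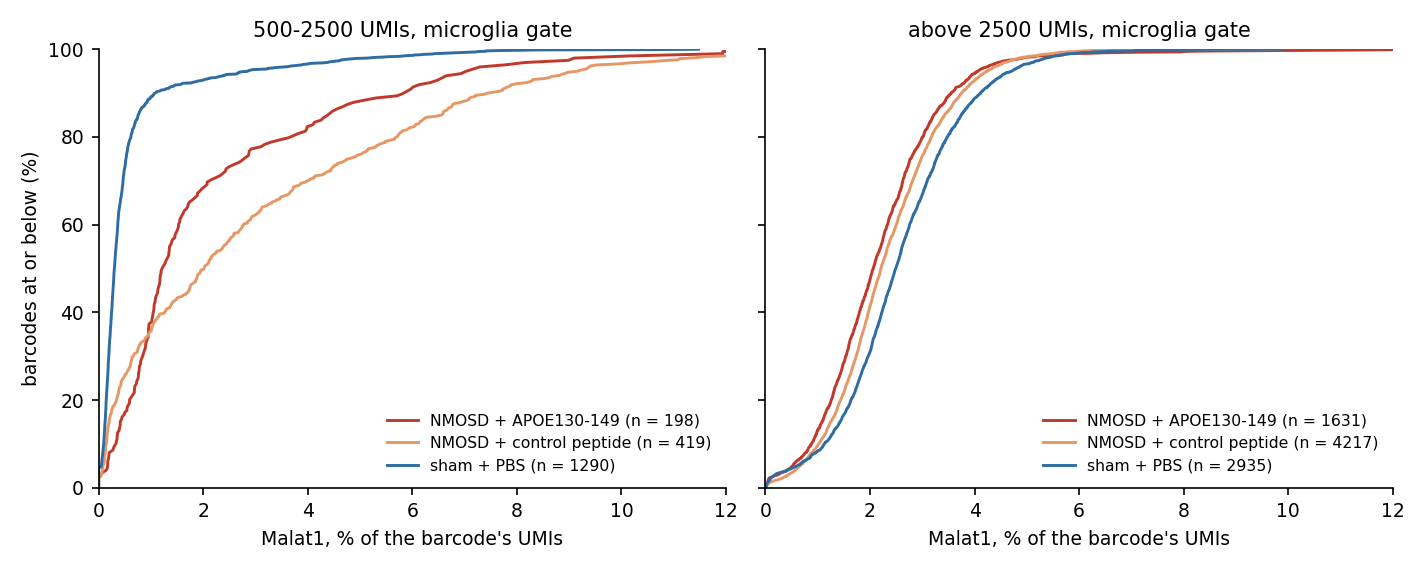
Cumulative percentage of microglia-gated barcodes (vertical axis) against the percentage of a barcode's UMIs from Malat1 (horizontal axis), by library, for barcodes of 500 to 2500 UMIs and for barcodes above 2500 UMIs. In the shallow class 73.0% of sham barcodes lie under 0.5% Malat1, against 17.2% in APOE130-149 and 25.5% in control peptide.

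The plot of Malat1 shares shows that shallow barcodes differed in spread as well as in level. From the lower to the upper quartile the Malat1 share ran from 0.760% to 2.79% in APOE130-149, from 0.482% to 4.79% in control peptide and from 0.171% to 0.523% in sham. Shares under 0.5% were found in 17.2%, 25.5% and 73.0% of the microglia-gated barcodes. Shares of 5% or more were found in 24 barcodes (12.1%) in APOE130-149, 101 (24.1%) in control peptide and 27 (2.09%) in sham. Sham shallow barcodes were therefore mostly Malat1-poor, and control peptide barcodes held the most Malat1-rich ones.

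Other features of the shallow barcodes went with the Malat1 share, and their part in the result was not tested. Below 0.5% Malat1, ribosomal protein genes took 12.6% of UMIs in APOE130-149, 15.8% in control peptide and 17.2% in sham. At 5% Malat1 or more they took 4.33%, 4.65% and 3.10%. Mitochondrially encoded genes took 1.92%, 2.23% and 1.20% of UMIs below 0.5% Malat1, and 5.11%, 6.69% and 6.61% at 5% or more. Malat1-rich shallow barcodes were thus poor in ribosomal protein transcripts and rich in mitochondrial ones in all 3 libraries. Over the whole shallow gate, ribosomal protein genes took 8.37%, 9.64% and 15.9% of UMIs and mitochondrial genes 3.27%, 4.79% and 1.96%. The 8 choroid plexus markers summed to 1414 CPM in APOE130-149, 1824 CPM in control peptide and 10.1 CPM in sham, with 4, 2 and 4 of 8 at 0 (Folr1, Kl, Clic6 and Slc4a5 in APOE130-149 and in sham, Calml4 and Slc4a5 in control peptide). The 8 B lineage markers summed to 4.31, 0 and 589.9 CPM, with 7, 8 and 3 of 8 at 0, Ms4a1 among them in all 3 libraries. The 8 neutrophil markers summed to 1746, 2344 and 2623 CPM, with Mmp8 at 0 in APOE130-149. The microglia markers summed to 23985, 23947 and 23644 CPM with all 10 detected.

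**Figure D3:**
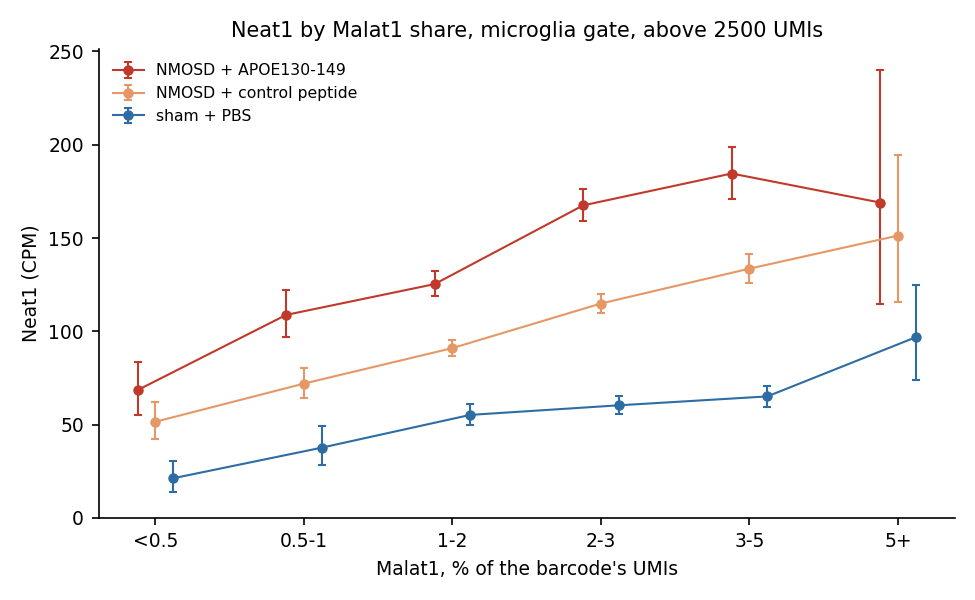
Neat1 level in CPM (vertical axis) in microglia-gated barcodes above 2500 UMIs, in 6 classes of the percentage of UMIs from Malat1 (horizontal axis), by library, with exact 95% Poisson intervals. Neat1 is higher in each class with more Malat1, except that in APOE130-149 the top class lies at 169 CPM and the one before it at 185 CPM, and sham lies lowest in every class.

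Set against the Malat1 share of a barcode within a library, Neat1 did not run in the opposite direction. In microglia-gated barcodes above 2500 UMIs with less than 0.5% Malat1, Neat1 was at 68.5 CPM in APOE130-149, 51.5 CPM in control peptide and 21.2 CPM in sham. At 1 to 2% Malat1 it was at 125, 91.0 and 55.2 CPM, and at 3 to 5% it was at 185, 134 and 65.1 CPM. At 5% or more it was at 169 CPM (115 to 240) in APOE130-149, 151 CPM (116 to 194) in control peptide and 96.8 CPM (73.9 to 125) in sham. Barcodes with more Malat1 thus had more Neat1, up to 3 to 5% in APOE130-149 and up to the top class in the others. From barcode to barcode the relation was weak, with a Pearson correlation of the pair's shares of 0.143 over 660 barcodes in APOE130-149, 0.0810 over 2190 in control peptide and 0.0858 over 1692 in sham, at 5000 to 10000 UMIs. The shallow gate ran the same way, with Neat1 at 58.6, 42.4 and 29.2 CPM below 0.5% Malat1 and at 307, 106 and 183 CPM at 3% or more, from 20, 23 and 14 UMIs. the share of ribosomal protein genes was lower in each higher Malat1 class, being 15.4%, 16.2% and 17.5% below 0.5% Malat1 and 6.74%, 7.79% and 7.60% at 5% or more in the deep class, and its part was not tested.

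**Figure D4:**
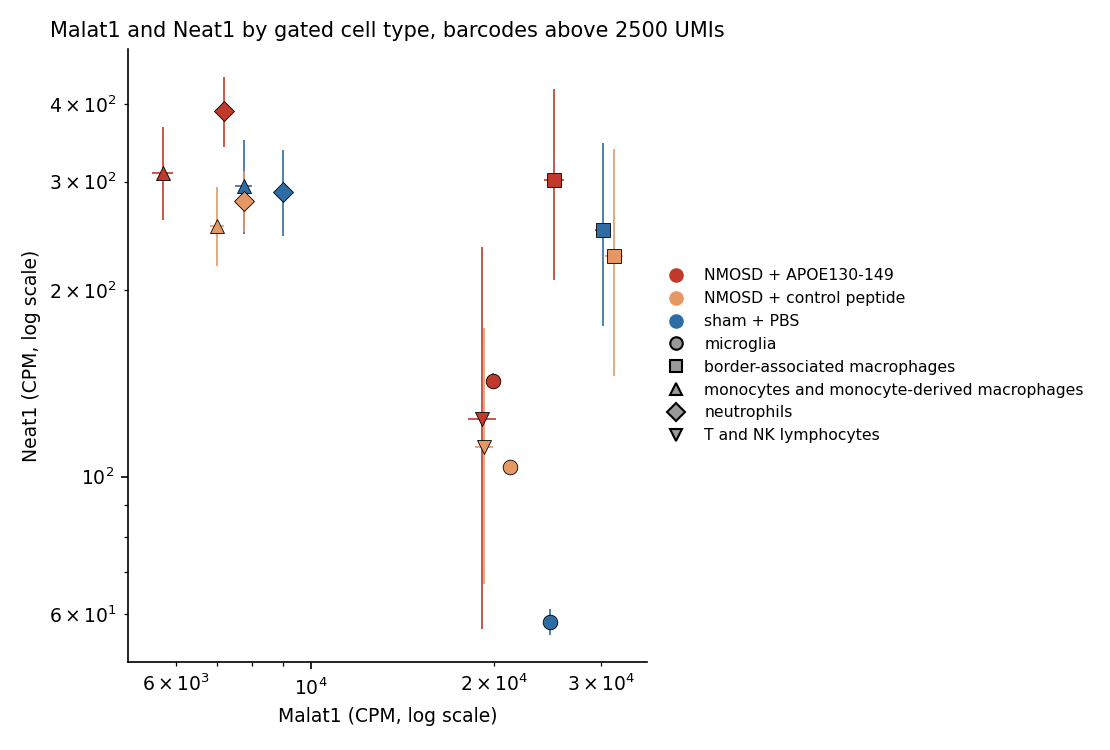
Malat1 level (horizontal axis, CPM, log scale) against Neat1 level (vertical axis, CPM, log scale) for each marker gate above 2500 UMIs, coloured by library. Monocyte and neutrophil gates lie at low Malat1 and high Neat1 in all 3 libraries, and the microglia gates spread along Neat1 from 58.3 to 143 CPM.

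Cell types gated by their markers differed in both genes, as the plot of gates shows. Neutrophil-gated barcodes above 2500 UMIs numbered 43 in APOE130-149, 79 in control peptide and 40 in sham. Their Malat1 was at 7196 CPM in APOE130-149, 7741 CPM in control peptide and 8998.5 CPM in sham. Their Neat1 was at 389.6 CPM (341 to 443) in APOE130-149, 279 CPM (249 to 312) in control peptide and 289 CPM (245 to 338) in sham. Neutrophils thus held 0.361, 0.365 and 0.365 times the microglial Malat1 in those libraries, but 2.73, 2.69 and 4.95 times the microglial Neat1.

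Monocyte-gated barcodes, 26 in APOE130-149, 47 in control peptide and 32 in sham, lay in the same region of that plot. Malat1 was at 5693, 6999 and 7735 CPM in those libraries, and Neat1 at 310 CPM (260 to 367), 254 CPM (219 to 294) and 295 CPM (247 to 350). Border-associated macrophages, the resident macrophages of meninges and vessels, numbered 15, 14 and 16 and held Malat1 at 25096, 31472 and 30194 CPM. Their Neat1 was at 302 CPM (208 to 424) in APOE130-149, 227 CPM (146 to 338) in control peptide and 251 CPM (175 to 347) in sham. The order of Malat1 levels in each library was therefore border-associated macrophages, microglia, neutrophils and monocytes, while Neat1 was lowest in microglia of these 4 gates. The Neat1 intervals of neutrophils, monocytes and border-associated macrophages overlapped in each library.

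The higher Neat1 of NMOSD libraries over sham was not seen to the same extent in these other gates. For control peptide over sham the Neat1 ratio was 0.967 (0.794 to 1.18) in neutrophils, 0.862 (0.686 to 1.09) in monocytes and 0.907 (0.518 to 1.56) in border-associated macrophages, against 1.78 (1.68 to 1.88) in microglia. Each of the first 3 intervals covered 1 and none reached the microglial interval. Neutrophil Neat1 was higher in APOE130-149, by 1.396 (1.17 to 1.66) over control peptide and 1.35 (1.10 to 1.66) over sham. For APOE130-149 over control peptide the Neat1 ratio was 1.22 (0.968 to 1.53) in monocytes and 1.33 (0.761 to 2.35) in border-associated macrophages. In microglia it was 1.38 (1.32 to 1.44) for that pair, a ratio that the intervals of all 3 other gates covered. Malat1 for APOE130-149 over sham was 0.800 in neutrophils, 0.736 in monocytes and 0.831 in border-associated macrophages, near the 0.807 of microglia. Malat1 for control peptide over sham was 0.860, 0.905 and 1.04 (0.996 to 1.09) in the same gates. Whether the gates differ between pools of mice was not tested.

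Rarer gates extended the range. T and NK lymphocytes, 9 barcodes in APOE130-149 and 20 in control peptide, held Malat1 at 19118 and 19257 CPM and Neat1 at 124 CPM (56.6 to 235) and 111 CPM (67.1 to 174). Choroid plexus epithelium, 7 and 23 barcodes, held Malat1 at 2747 and 1902 CPM and Neat1 at 26.9 and 18.5 CPM. In 10 erythroid barcodes of the control peptide library Malat1 was at 636 CPM and Neat1 had no UMI, for which a floor of 3 counts stands at 22.5 CPM. Barcodes positive for microglia and another type, 67 in APOE130-149, 135 in control peptide and 38 in sham, held Malat1 at 18034, 17740.5 and 19892 CPM and Neat1 at 183, 164 and 127 CPM. Barcodes with no gate, 45, 81 and 49, held Malat1 at 11097, 11729 and 16727 CPM and Neat1 at 148, 193 and 180.5 CPM.

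The lists of related genes were read in microglia-gated barcodes above 2500 UMIs. The median log2 ratio of all genes measured was 0.01 for APOE130-149 over control peptide, -0.05 for APOE130-149 over sham and -0.08 for control peptide over sham. Of the paraspeckle proteins, the partners of Neat1, 25 of 26 were measured and their medians were -0.05, -0.24 and -0.19 for those pairs. Sfpq, an essential core protein of paraspeckles, was at 242 CPM in APOE130-149, 242 CPM in control peptide and 277 CPM in sham. Nono, its partner, was at 101, 104 and 122 CPM. None of the 25 passed 1.5-fold upward for any pair, while 0, 2 and 1 passed downward, against 0.155%, 1.15% and 1.01% of all genes. The highest ratios were 1.17 for Rbm14 in APOE130-149 over control peptide, 1.06 for Dazap1 in APOE130-149 over sham and 1.05 for Smarca4 in control peptide over sham. Tardbp, which binds RNA and shuttles between nucleus and cytoplasm, was the lowest in both pairs with sham. It was at 81.1 CPM in APOE130-149 and 84.8 CPM in control peptide against 142 CPM in sham. Pspc1, a core paraspeckle protein, was the lowest in APOE130-149 over control peptide. Neat1 was thus higher in NMOSD libraries without a like difference in the transcripts of its protein partners. The proteins themselves were not measured.

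The nuclear speckle proteins, which share a compartment with Malat1, had medians of -0.10, -0.23 and -0.18 over 31 genes for APOE130-149 over control peptide, APOE130-149 over sham and control peptide over sham. None passed upward and 0, 5 and 2 passed downward, against 0.155%, 1.15% and 1.01% of all genes, with highest ratios of 1.11 for U2af2, 1.08 for Srsf5 and 1.15 for U2af1, all splicing factors. Rsrp1 was at 433 CPM in APOE130-149 and 408 CPM in control peptide against 766 CPM in sham, and Luc7l3, a splicing factor, at 105 and 119 CPM against 195 CPM. Son, a scaffold of speckles, was at 781, 803 and 909 CPM in the 3 libraries. Of 15 other nuclear noncoding RNAs 9 were measured, with medians of -0.10, -0.17 and -0.22 and 0, 0 and 2 of 9 passing downward, against the same shares of all genes. Xist, the RNA that coats the inactive X chromosome, was at 2163, 2322 and 2343 CPM, and Tsix, its antisense partner, at 221, 164 and 314 CPM, though reads of such a pair can only be told apart where counting used strand. Kcnq1ot1, an imprinted RNA, was at 191, 198 and 216 CPM. The Malat1 ratios of 0.938, 0.807 and 0.860 equal -0.09, -0.31 and -0.22 on the log2 scale, so Malat1 lay near the medians of speckle proteins and of other nuclear RNAs for APOE130-149 over control peptide and for control peptide over sham.

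The genes next to the pair on chromosome 19 were read at the same threshold. All 13 listed neighbours were in the tables and 9 were measured, with medians of 0.11, 0.04 and -0.08. None passed 1.5-fold, against 0.621%, 3.05% and 2.74% of all genes that passed either way. Malat1 did not pass it either, so the threshold does not set the neighbours apart from Malat1. Frmd8 was at 33.8 CPM in APOE130-149, 29.5 CPM in control peptide and 29.4 CPM in sham. Slc25a45 was at 71.6, 66.3 and 68.4 CPM, Fam89b at 54.5, 57.0 and 49.1 CPM, and Ehbp1l1 at 52.0, 51.2 and 58.8 CPM. Dpf2 was at 44.7, 41.9 and 46.6 CPM, Map3k11 at 40.4, 33.7 and 36.8 CPM, Znrd2 at 20.8, 24.4 and 21.2 CPM, and Pola2 at 15.4, 14.1 and 17.5 CPM. Cdc42ep2, Tigd3, Ltbp3 and Kcnk7 lay below 10 CPM.

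In shallow microglia-gated barcodes the lists that share the nucleus with Malat1 stood the other way, as Malat1 did. The speckle proteins had medians of 0.08, 0.73 and 0.84 for APOE130-149 over control peptide, APOE130-149 over sham and control peptide over sham, with 2, 18 and 16 of 31 past 1.5-fold upward, against 22%, 32.1% and 24.8% of all genes and medians of 0.07, 0.18 and 0.06 over them. The other nuclear noncoding RNAs had medians of 0.01, 1.14 and 1.29, with 1 of 10, 7 of 9 and 8 of 10 upward. Tsix was at 565 CPM in APOE130-149 and 507 CPM in control peptide against 91.3 CPM in sham. Of the 13 mitochondrially encoded genes, 1, 11 and 11 passed upward, to be set against the same shares. Paraspeckle proteins had smaller medians of 0.08, 0.23 and 0.22. Of 25 measured, 2, 9 and 5 passed upward, to be set against the same shares. Downward passed 2, 3 and 2, against 15.9%, 18.9% and 15.4% of all genes. Pspc1, the highest of them in both pairs with sham, was at 51.7 and 46.1 CPM in the NMOSD libraries against 14.8 CPM in sham.

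The immediate early genes, which many cells switch on within minutes of a stimulus, had the largest medians of the 10 lists for every pair. In microglia-gated barcodes above 2500 UMIs, 7 of 18 measured passed 1.5-fold upward for APOE130-149 over control peptide, 17 for APOE130-149 over sham and 17 for control peptide over sham, with medians of 0.54, 2.47 and 2.05. Over all genes 0.465%, 1.9% and 1.73% passed upward, and these shares apply to the NF-kB and heat shock genes too. Fos, a subunit of the AP-1 transcription factor, was at 903 CPM in APOE130-149, 506 CPM in control peptide and 85.0 CPM in sham, and Klf4, a zinc finger factor, at 227, 115 and 10.3 CPM. Myc, another factor, was the exception at 28.9, 19.6 and 23.1 CPM. Of the 14 NF-kB response genes measured, 1, 5 and 4 passed upward. Tnf, an inflammatory cytokine, passed only in the pairs with sham, at 14.9, 10.7 and 3.60 CPM in the 3 libraries. The heat shock genes had 2, 2 and 1 of 11 upward, and none of the p53 targets or hypoxia genes passed.

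**Figure D5:**
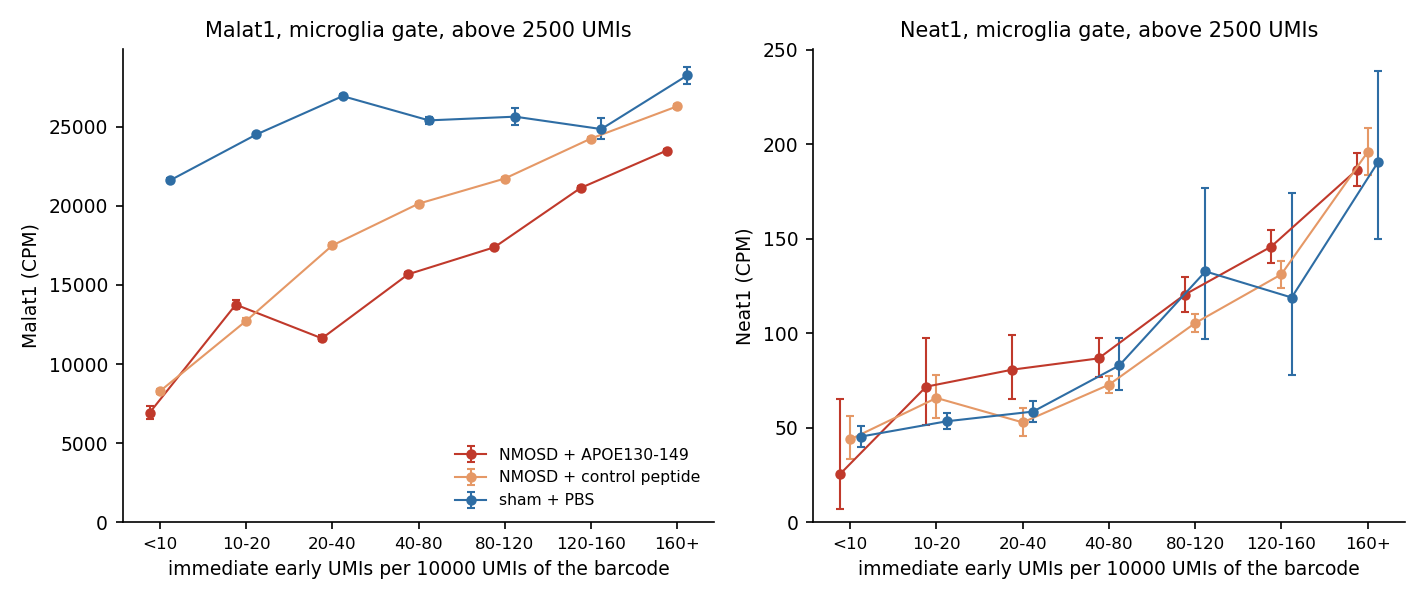
Levels of Malat1 and Neat1 in CPM (vertical axes) in microglia-gated barcodes above 2500 UMIs, in 7 bins of the number of UMIs from 21 immediate early genes per 10000 UMIs (horizontal axis), by library, with exact 95% Poisson intervals. In each library Neat1 is higher at 160 or more per 10000 than at 10 to 20, with no library highest in every bin, while Malat1 is highest in sham in each bin.

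Neat1 was higher in the bin of highest immediate early share than in the lowest in each library, as the plot by immediate early share shows. These levels are pooled over the barcodes of a bin and do not give the relation from barcode to barcode. The median immediate early share was 134 per 10000 UMIs in APOE130-149 (quartiles 85.4 and 176), 89.3 in control peptide (55.9 and 125) and 16.1 in sham (10.8 and 24.8). At 10 to 20 per 10000, Neat1 was at 71.8 CPM in APOE130-149, 65.8 CPM in control peptide and 53.5 CPM in sham. At 40 to 80 it was at 86.8, 72.8 and 83.0 CPM, and at 160 or more at 187, 196 and 190.5 CPM. The bins between differed more, with 80.8, 52.9 and 58.6 CPM at 20 to 40 per 10000 and ratios of 1.53 (1.18 to 1.96) for APOE130-149 over control peptide and 1.38 (1.09 to 1.73) for APOE130-149 over sham. Below 10 per 10000 Neat1 was at 25.5, 43.9 and 45.4 CPM. At like immediate early shares no library was thus highest or lowest in Neat1 throughout. The interval of the ratio lay above 1 in 1 of 7 bins for APOE130-149 over sham, in 1 of 7 for control peptide over sham and in 4 of 7 for APOE130-149 over control peptide. In barcodes of 5000 to 10000 UMIs it lay above 1 in no bin for any pair, and below 1 in 1 of 6 for APOE130-149 over control peptide. When all libraries were given a common mix of these bins, an alternative added after the data were seen, the Neat1 ratios were 1.09 for APOE130-149 over control peptide, 1.06 for APOE130-149 over sham and 0.975 for control peptide over sham. The sham library held 625 barcodes in the lowest bin and 43 in the highest, against 21 and 557 in APOE130-149 and 117 and 487 in control peptide.

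Malat1 behaved differently along the same bins. In sham it changed least, at 21616 CPM below 10 per 10000, 25399 CPM at 40 to 80 and 28251 CPM at 160 or more. In APOE130-149 it was at 6922, 15675 and 23495 CPM in those bins, and in control peptide at 8285, 20134.5 and 26287 CPM. The interval of the Malat1 ratio lay below 1 in 7 of 7 bins for APOE130-149 over sham and in 6 of 7 for control peptide over sham. In barcodes of 5000 to 10000 UMIs it lay below 1 in 6 of 7 bins and above 1 in 1 of 7 for both pairs. With the common mix of bins, the Malat1 ratios were 0.846 for APOE130-149 over control peptide, 0.646 for APOE130-149 over sham and 0.763 for control peptide over sham. With that mix Malat1 thus lay further below sham than without it, while the Neat1 ratios lay nearer to 1. The libraries overlapped little in these bins. At 10 to 20 per 10000 there were 49 barcodes in APOE130-149, 171 in control peptide and 1254 in sham. At 120 to 160 there were 393, 685 and 20. The part of the immediate early share in the ratios of either gene was not tested.

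Genes with a pattern most like each member were looked for over 7 strata, the microglia gate in both depth classes of 3 libraries and the control peptide neutrophils above 2500 UMIs, among 4601 genes. The measure was the Pearson correlation of log2(CPM + 1), with strata that share libraries, and it is a description. Malat1 lay closest to Top2b, a DNA topoisomerase (0.998), Rbm25, a splicing factor (0.995), Tia1, an RNA-binding protein (0.994), Son (0.993) and Gsk3b, a protein kinase (0.991). Top2b ran between 40.9 and 79.3 CPM and Son between 416 and 1084 CPM over the strata. Neat1 lay closest to Nfkbiz, an atypical IkB protein induced by inflammatory signals (0.958), the linker histone genes Hist1h1e (0.946) and Hist1h1c (0.936), and Marcksl1, an actin-linked protein (0.933). The histone genes belong to a family of like sequences, so their counts are uncertain. Nfkbiz was at 74.4 CPM in APOE130-149, 55.6 CPM in control peptide and 37.0 CPM in sham in the deep microglia gate. Malat1 and Neat1 correlated at 0.03 with each other over the same 7 strata. Ranking by Spearman's rho shared 0 of the 5 genes for Malat1 and 2 of 5 for Neat1, but over 7 strata many genes tie, and Top2b itself had a rho of 1.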

How the data were processed

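The deposited files are filtered gene-by-barcode matrices of UMI counts, 1 per library, made with a single-cell 3′ v.2 kit per the labels' protocols. The submitters' processing notes name Cell Ranger 5.0.1, Seurat 4.3.0 and mm10, while the matrix headers name cellranger 7.0.1. Whether introns were counted and strand was used is not given in the sources used here. Intron counting could raise nuclear RNAs that hold introns, while Malat1-201 and Neat1-201 have 1 exon each.

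Counts of the gated barcodes were summed per library and divided by their total UMIs (CPM). A type was called at 3 or more markers and 0.2% of UMIs (2% for neutrophils, B lineage, choroid plexus and erythroid cells), and microglia at 3 markers and 1%. These limits were chosen with the data in view. Barcodes with both were kept apart as mixed. No doublet caller was run, and no barcode was removed. Intervals are exact: Poisson for levels, conditional binomial for ratios, Clopper-Pearson for shares. No p-value was computed, since there is 1 library per group. UMIs count molecules, so intervals cover counting error only. For Malat1 and Neat1 in a gate, and for fold ratios, a count of 0 stands at a floor of 3 counts. Sums of markers are given as counted, and the lowest rest on very few UMIs.

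The genes named were the 2 members, the listed neighbours, the 5 most alike per member, and of each list its counts, with the highest and lowest members of the lists nearest to the pair. Other list genes were named after their values were seen, for their known role. A few genes that this rule would name are not reported here. The members, lists and markers were chosen with earlier results of these data known. Rbm12 was not matched, and Sssca1, an older symbol of Znrd2, was counted once under the newer. Alternatives covered scaling (TMM of edgeR 4.0.16 and median of ratios), the denominator, barcode filters, depth, gates and minimum level. The steps were tested on simulated data. Python 3.11.15, numpy 2.4.6, scipy 1.17.1, pandas 2.3.3, matplotlib 3.10.9 and R 4.3.3 were used. Sequences were read from the GENCODE vM21 transcripts, and their GRCm38 positions from its annotation.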

Additional observations from a re-analysis of the deposited data

Results flagged for a closer look

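The Malat1 ratio between libraries depended on depth class in microglia-gated barcodes. For APOE130-149 over sham it was 3.81 at 500 to 2500 UMIs and 0.807 above 2500 UMIs, a 4.72-fold change of the ratio. For control peptide over sham it was 4.88 and 0.860, a 5.67-fold change. The sham library lay on opposite sides of both NMOSD libraries in the 2 classes. The difference was not tested, since there is 1 library per group.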

How the results depend on the processing

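Of 198 alternative values over 18 ratios, 102 moved by no more than counting error, 91 moved further and 5 turned direction; the cause was not tested. The values below that moved or turned are in the order APOE130-149 over control peptide, APOE130-149 over sham and control peptide over sham, for all barcodes, then the microglia gate above 2500 UMIs ("deep"), then at 500 to 2500 UMIs ("shallow"). Scaling by TMM gave Malat1 0.917, 0.846 and 0.923 over all barcodes, 0.915, 0.831 and 0.908 deep, and 0.730, 3.31 and 4.53 shallow. Median-of-ratios scaling gave 0.919, 0.848 and 0.923, then 0.916, 0.832 and 0.908, then 0.727, 3.33 and 4.59. A denominator without the members, mitochondrial and ribosomal protein genes gave Malat1, for the APOE130-149 pairs, 0.930 and 0.822, deep 0.925 and 0.797, shallow 0.751 and 3.62. The mean of the barcodes' shares turned Malat1 over all barcodes, with 0.936, 1.12 and 1.19, and gave 0.851 and 0.904 over sham deep, and 0.726, 3.45 and 4.75 shallow, with Neat1 at 1.43, 2.53 and 1.77 over all barcodes. Keeping barcodes with 500 or more genes and no more than 10% mitochondrial UMIs gave shallow Malat1 ratios of 0.841, 4.53 and 5.39. Without barcodes above 2 times the library median, Malat1 was 0.907, 0.866 and 0.956 over all barcodes and 0.916, 0.837 and 0.913 deep, and deep Neat1 in APOE130-149 over control peptide 1.30. A common mix of depth bins gave Malat1 0.975, 0.884 and 0.906, deep 0.978, 0.874 and 0.894, and Neat1 2.14 in APOE130-149 over sham, deep 1.31 and 2.25 for the APOE130-149 pairs. Without the 1% of barcodes with most UMIs of the gene, Malat1 was 0.937, 0.837 and 0.893 over all barcodes, 0.933 and 0.864 deep over control peptide and for control peptide over sham, and 4.25 and 5.34 over sham shallow, and Neat1 was 2.52 and 1.79 over sham for all barcodes. With the depth boundary at 2000 UMIs, Malat1 was 0.811 and 0.864 over sham deep, and shallow 0.720 for APOE130-149 over control peptide and 5.30 for control peptide over sham. At 3500 UMIs shallow Malat1 was 0.896, 2.82 and 3.15. The stricter marker gate turned deep Malat1 in both APOE130-149 pairs, with 1.19, 1.12 and 0.942, and gave shallow Malat1 0.576, 2.51 and 4.35, deep Neat1 1.03, 1.61 and 1.57, and shallow Neat1 5.67 for APOE130-149 over control peptide and 1.16 for control peptide over sham. Allowing 1 marker of each other type, added after the data were seen, gave Malat1 0.944, 0.892 and 0.944 deep and 0.704, 3.34 and 4.74 shallow, and deep Neat1 1.10, 2.25 and 2.04. A common mix of immediate early bins, likewise added, gave deep Malat1 0.846, 0.646 and 0.763 and deep Neat1 1.09, 1.06 and 0.975, the last of which turned.

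Genes past 1.5-fold in the deep gate numbered 52, 260 and 233 at a minimum of 10 CPM, 423, 980 and 953 at 1 CPM, and 20, 103 and 78 at 50 CPM. In the shallow gate they numbered 3413, 4574 and 3566, then 6073, 7507 and 5873, then 895, 1945 and 1382.

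No paired analysis was possible because there is 1 library per group, and for the same reason no replicate was left out. Each library is 1 pool, so differences between groups and between libraries cannot be told apart. Neat1 rests on 43 to 62 UMIs per library in shallow microglia-gated barcodes, which limits those ratios. Free RNA was not estimated.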
